A study of Mus musculus with 2 samples.

Results

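The Hox genes were examined in the facial prominence of the mouse embryo at embryonic day 13.5, in 2 RNA libraries that form 1 group. Members were taken by name: each row of the deposited gene tables was named by its gene identifier in GENCODE for mouse GRCm38, and protein-coding genes called Hoxa, Hoxb, Hoxc or Hoxd with a number were kept. There were 39 of them among 43346 gene rows and 21474 protein-coding genes, with 11 in the Hoxa cluster, 10 in Hoxb, 9 in Hoxc and 9 in Hoxd. The tissue came from B6NCrl embryos labelled healthy, with both sexes pooled, and carried no mutation or treatment that the labels name. The libraries are biological replicates 1 and 2. Their labels give each its own biosample and both the same donor, so differences between them are differences between 2 samples, which may be biological or technical. No condition was compared, and no p-value is given.

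Hox genes encode homeodomain transcription factors that set position along the hindbrain and trunk. They lie in 4 clusters, and the number in a gene's name gives its place in the cluster, so that genes with the same number are paralogs. Genes with low numbers lie at the 3' end of a cluster and are in general active earlier and nearer the head, and genes with high numbers act toward the tail, in the limbs and in the genital bud. Neural crest cells that form the upper face and the first pharyngeal arch are known to lack Hox expression, whereas crest of the second arch expresses Hoxa2, which gives that arch its identity. Hox proteins bind DNA together with TALE homeodomain partners of the Pbx and Meis families, and silent clusters are held by Polycomb proteins.

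The deposited tables held 30451502 expected counts in replicate 1 and 23777465 in replicate 2, where an expected count is the estimated number of reads of a gene. Spike-in RNA took 6.27% and 4.45% of them. Of the 8 facial mesenchyme markers and the 5 surface epithelium markers, all reached 1 TPM (transcripts per 1000000) in each library, led by Msx1 at 440 and 399 TPM and Krt14 at 507 and 444 TPM. Liver markers stood apart, with summed levels of 3.50 and 226 TPM in replicates 1 and 2, and Afp alone at 0.450 and 84.7 TPM. Heart markers summed to 11.8 and 54.4 TPM.

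Hox transcripts were scarce. All 39 genes together took 1127 of the counts in replicate 1 (0.00395% of those in gene rows) and 399 in replicate 2 (0.00176%). Their summed level was 29.2 and 11.5 TPM, 20.3 ± 12.5 (SD, n = 2). The median Hox gene had 0.10 and 0.040 TPM, beside 4.40 and 4.88 TPM for the median protein-coding gene. Only 3 Hox genes of 39 (7.69%) reached 1 TPM in each library, against 60.9% of protein-coding genes. In replicate 1 alone 10 reached that level (25.6%, against 61.8%), and in replicate 2 alone 4 did (10.3%, against 63.0%). In such a tissue, fewer cells that make a transcript and less transcript per cell cannot be told apart.

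**Figure D1:**
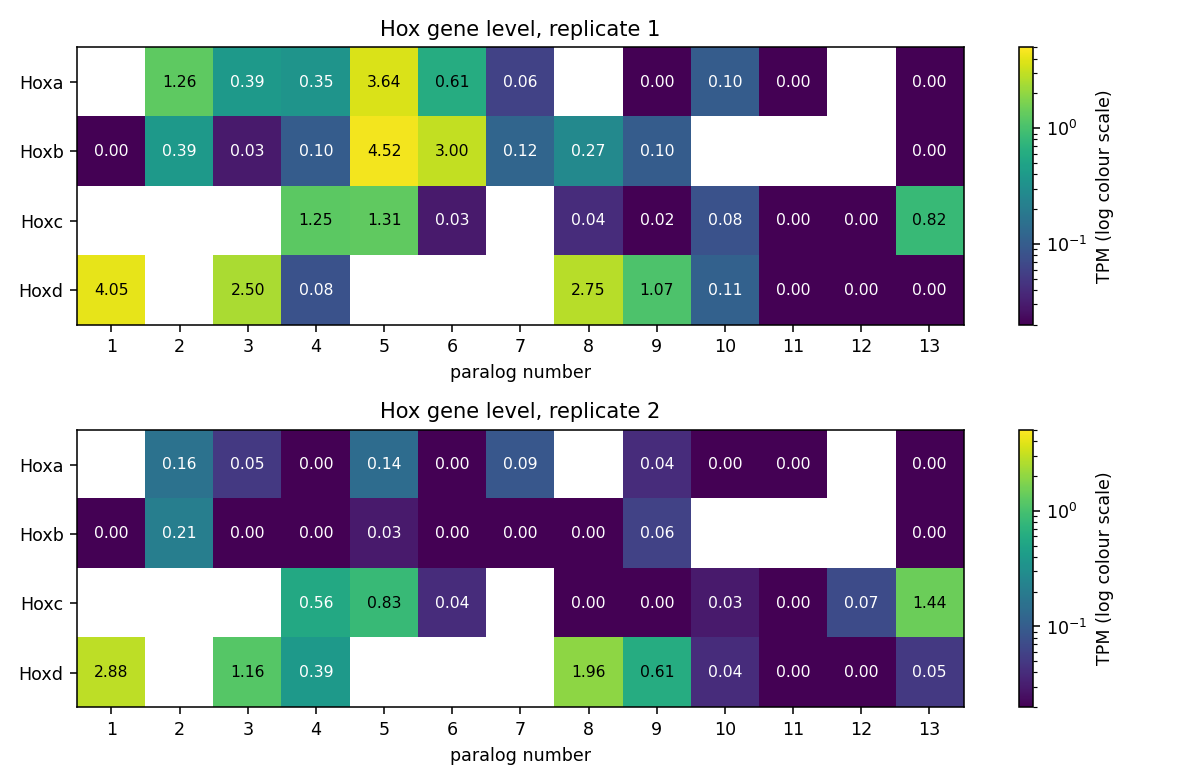
Level of every Hox gene in each library. Rows are the clusters, columns the paralog numbers, colour and printed value the TPM on a log colour scale, and white squares are places with no gene or with one not reported here. Replicate 1 has its highest squares at Hoxb5, Hoxd1 and Hoxa5, and replicate 2 at Hoxd1 and Hoxd8.

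Reads fell on most genes, but few on each. A count was found in both libraries for 19 genes, in replicate 1 alone for 10 and in replicate 2 alone for 3. The same split over all protein-coding genes was not computed, and replicate 1 held more counts in all. The split is therefore not read as a trait of the Hox genes. No count was found in either library for 7 genes (17.9%, against 17.2% of protein-coding genes). These were Hoxb1, which specifies a segment of the hindbrain, and Hoxa11, Hoxa13, Hoxb13, Hoxc11, Hoxd11 and Hoxd12, which act in the limbs, tail and genital bud. A count of 0 allows up to 3 counts, which is 0.105 counts in 1000000 in replicate 1 and 0.132 in replicate 2, for counting error only. Their share was close to that of all protein-coding genes, while the low median and the few genes at 1 TPM set the Hox genes apart from that background.

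By cluster, Hoxd was the only one with members that reached 1 TPM in each library, and it held all 3. The Hoxd cluster spans chr2:74668310-74765142 of GRCm38 and is read on the plus strand. Its 9 genes summed to 10.6 and 7.09 TPM, or 36.2% and 61.8% of the Hox total. Hoxc, on chr15:102921103-103036852, summed to 3.55 and 2.97 TPM (12.2% and 25.9%). In both of these clusters the sums of the 2 libraries lay within 2-fold of each other.

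Hoxa and Hoxb differed far more between the libraries. Hoxa, on chromosome 6 and read on the minus strand, summed to 6.56 and 1.12 TPM. Hoxb, on chr11:96194316-96368256, summed to 8.53 and 0.300 TPM, and its share of the Hox total was 29.2% and 2.61%. Scaled by the effective library sizes, the ratio of counts in replicate 1 over replicate 2 was 26.7 for Hoxb (exact 95% interval 13.9 to 59.0) and 5.58 for Hoxa (3.88 to 8.24). For Hoxd it was 1.48 (1.26 to 1.73) and for Hoxc 1.15 (0.896 to 1.48). These intervals cover counting error only, since the reads carry no molecular identifiers that the sources used here name.

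**Figure D2:**
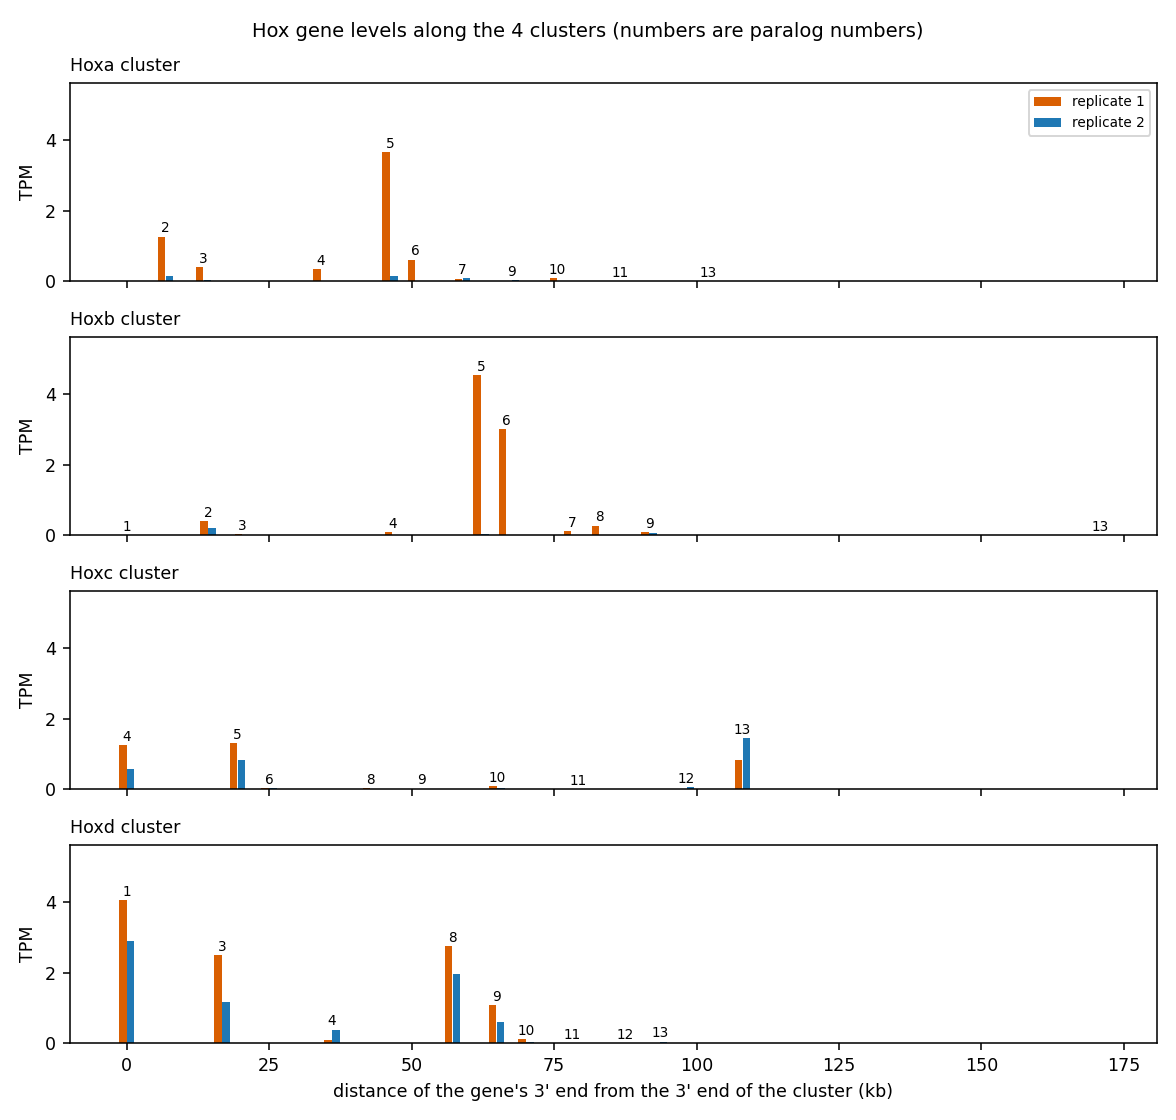
Levels along the clusters. The x axis is the distance in kb of each gene's 3' end from the 3' end of its cluster, the y axis the TPM, bars are the libraries and the numbers above them are paralog numbers (1 gene is not reported here and is not drawn). Tall orange bars of replicate 1 at paralog 5 in Hoxa and at paralogs 5 and 6 in Hoxb have almost no blue beside them. Hoxd, with a tall orange bar at paralog 1, has bars of both libraries.

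By paralog number, the genes of the 3' ends and the middle of the clusters held most of the level. Paralogs 1 to 3 summed to 8.77 and 5.10 TPM. Paralogs 4 to 8 summed to 18.1 and 4.04 TPM. Paralogs 9 to 13, which are 16 of the 39 genes, summed to 2.30 and 2.34 TPM, and their ratio of counts was 1.00 (0.744 to 1.35). That value averages unlike clusters, since it was 1.78 (1.06 to 3.05) for Hoxd 9 to 13 and 0.645 (0.426 to 0.971) for Hoxc 9 to 13. The excess of replicate 1 was thus largest in the middle group, with a ratio of 3.8 (3.18 to 4.57), beside 1.63 (1.35 to 1.98) for paralogs 1 to 3. Within that group the 5 Hoxb genes numbered 4 to 8 had 273 counts against 1, and the 4 Hoxa genes 160 against 5, most of them from Hoxb5, Hoxb6 and Hoxa5. The ratio was 1.70 (1.21 to 2.40) for Hoxc 4 to 8 and 1.34 (1.02 to 1.76) for Hoxd 4 to 8.

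Hoxd1 had the highest mean level. It lies at the 3' end of its cluster and is known from pain-sensing neurons of the sensory ganglia. Its counts were 151 and 82 and its levels 4.05 and 2.88 TPM, 3.46 ± 0.827 (SD, n = 2), with deposited credibility bounds of 3.37 to 4.62 and 2.24 to 3.44 TPM. Both libraries held it, and the ratio was 1.5 (1.14 to 1.99). The bounds of the libraries overlapped.

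Hoxd8, a gene of the middle of the cluster that acts in the trunk, had 144 and 80 counts and levels of 2.75 and 1.96 TPM. Its ratio was 1.47 (1.11 to 1.96). Hoxd3, which shapes the neck vertebrae, had 97.8 and 51.7 counts and levels of 2.50 and 1.16 TPM, with a ratio of 1.54 (1.09 to 2.20). Like Hoxd1, both were higher in replicate 1 by less than 2-fold with TMM scaling. With spike-in scaling the log2 ratios of Hoxd1, Hoxd3 and Hoxd8 were 0.03, 0.06 and -0.00. That scaling also put the median log2 ratio of protein-coding genes at -0.53, below these genes, so it lowered ratios in general. Hoxd9, a gene of the trunk and limb, had 46 and 20 counts and levels of 1.07 and 0.610 TPM. The remaining Hoxd genes with counts, Hoxd4, Hoxd10 and Hoxd13, lay between 0 and 0.390 TPM in either library.

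In the order of mean level Hoxd1 was followed by Hoxd8, Hoxb5, Hoxa5, Hoxd3 and Hoxb6. Hoxb5, Hoxa5 and Hoxb6 owed that place to replicate 1 alone. In replicate 1 the credibility bounds of Hoxb5 (3.8 to 5.12 TPM) overlapped those of Hoxd1, the next gene in that library, and those of Hoxa5 (2.99 to 4.18) overlapped both. In replicate 2 the bounds of Hoxd1 and Hoxd8 (1.62 to 2.89) overlapped, as did those of Hoxc13 (1.05 to 1.79) and Hoxd3 (1.03 to 2.20).

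Hoxb5, known from the neural crest of the gut and from the trunk, had 174 counts in replicate 1 and 1 in replicate 2. Its levels were 4.52 and 0.0300 TPM, the highest of any Hox gene in replicate 1 and near 0 in replicate 2. The ratio of counts was 142, with an interval of 25.2 to 5647. Hoxb6, its neighbour in the cluster, had 84 counts in replicate 1 and 0 in replicate 2, with levels of 3.0 and 0 TPM. The lower limit of the exact interval of its ratio was 18.2. By the log2 ratio these were the 2 highest of the 15017 protein-coding genes with 20 or more counts summed over the libraries. The filter is on the sum and both genes passed it through replicate 1, so their high ranks were in part set by it. The same holds for the ranks given below.

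Hoxa5, which is needed for the lung and the neck vertebrae, had 137 and 4 counts and levels of 3.64 and 0.140 TPM. Its ratio was 28.0 (10.7 to 104) and its rank 8. Hoxa2, the selector of the second arch, had 42 and 4 counts and levels of 1.26 and 0.160 TPM. The ratio was 8.58 (3.11 to 32.9) and the rank 15. Hoxa3, which is needed for thymus and parathyroid, had 19.9 and 2.18 counts and levels of 0.390 and 0.0500 TPM, with rank 18. The Hoxa and Hoxb genes at 1 TPM or more in replicate 1 were thus Hoxa2, Hoxa5, Hoxb5 and Hoxb6, and none of them passed 0.160 TPM in replicate 2.

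Smaller neighbours showed the same side. Hoxa4 had 11 and 0 counts, Hoxa6 10 and 0, Hoxb8 7 and 0, Hoxb4 5 and 0, and Hoxb7 3 and 0. The lower limit of the exact interval of the ratio was 2.05 for Hoxa4, 1.83 for Hoxa6 and 1.18 for Hoxb8. It was 0.749 for Hoxb4 and 0.338 for Hoxb7, whose intervals span equal levels. Hoxb2, which acts in the hindbrain, had 15.4 and 6 counts, levels of 0.390 and 0.210 TPM and a ratio of 2.04 (0.749 to 6.43), an interval that spans equal levels. Hoxb3 and Hoxa10 had 1.14 and 3 counts in replicate 1 and none in replicate 2, Hoxb9 had 5 and 2, and Hoxa7, the highest paralog 7 gene by mean level, had 2 and 1.

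A few genes had more counts in replicate 2. Hoxa9 had 0 and 2 counts. Hoxd4 had 2.36 and 8.93 counts, but it lies largely under other genes' exons.

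Hoxc13, a gene at the 5' end of its cluster that controls keratin genes of hair, nail and tongue papillae, was the 1 member numbered 10 or above that reached 1 TPM in a library. Its counts were 41 and 55 and its levels 0.820 and 1.44 TPM, 1.13 ± 0.438 (SD, n = 2). The ratio was 0.609 (0.396 to 0.929), so it was lower in replicate 1 by more than counting error. Of the 5 hair and tongue keratin markers that matched a row, 2 reached 1 TPM in each library, and their sum came to 105 and 94.6 TPM. Most of that sum was Lef1, which many tissues express, while Krt35 had 39 and 50 counts and levels of 1.14 and 1.88 TPM. Whether these markers bear on Hoxc13 was not tested.

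At the 3' end of the same cluster, Hoxc4 and Hoxc5 act at the level of the neck and forelimb. Hoxc4 had 50 and 17 counts, levels of 1.25 and 0.560 TPM and a ratio of 2.40 (1.36 to 4.44). Hoxc5 had 57 and 35 counts, levels of 1.31 and 0.830 TPM and a ratio of 1.33 (0.859 to 2.09). Between these ends Hoxc6, Hoxc8, Hoxc9, Hoxc10 and Hoxc12 had at most 3 counts in a library. Hoxc10 had 3 and 1 and Hoxc12 had 0 and 1, so the cluster was read at its ends and hardly in its middle.

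A sum of 20 or more counts was reached by 14 of the 39 Hox genes, against 15017 of the 21474 protein-coding genes. The filter is on the sum, so a gene near 0 in 1 library enters through the other and has to differ. Of these 14, 6 were 2-fold or more higher in replicate 1 (Hoxa2, Hoxa3, Hoxa5, Hoxb5, Hoxb6 and Hoxc4), beside 1.12% of the protein-coding genes tested. The median log2 ratio of the 14 was 0.91, and that of the protein-coding genes tested was 0.03 with a 5th to 95th percentile of -0.65 to 0.44. This background was not matched to the Hox genes by count, and a gene with few counts passes 2-fold more easily. The other 25 members are given by their counts only.

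**Figure D3:**
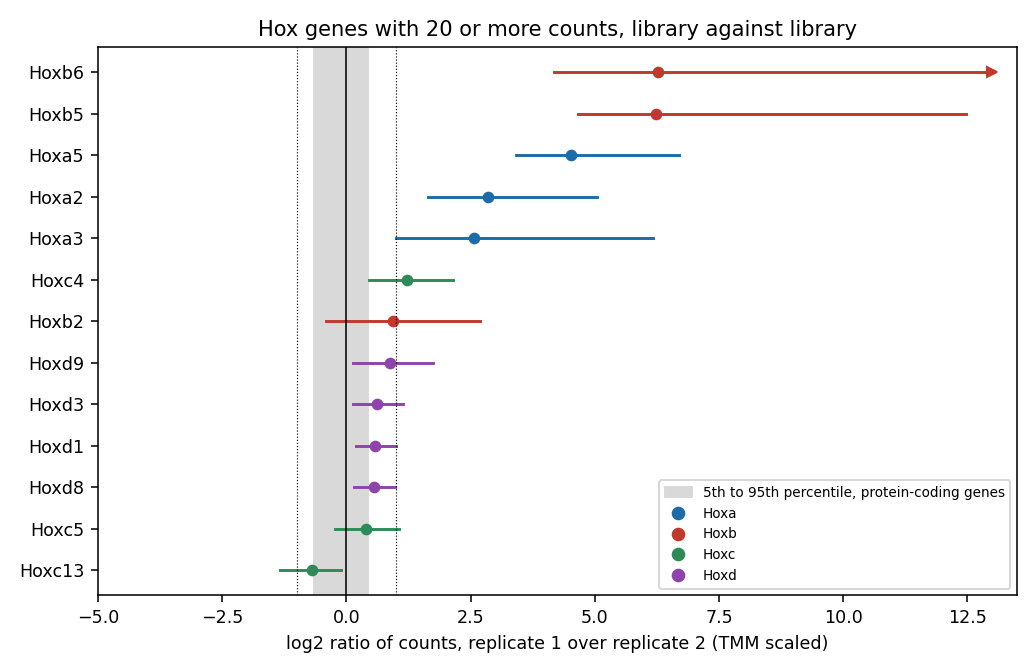
Log2 ratio of counts, replicate 1 over replicate 2, for 13 of the 14 Hox genes with 20 or more summed counts. Points are ratios with a prior count of 1, and lines exact 95% counting intervals (the arrow of Hoxb6 has no upper bound). The grey band is the 5th to 95th percentile of protein-coding genes, not matched by count, and dotted lines mark 2-fold. Hoxb6, Hoxb5 and Hoxa5 lie farthest right, and the Hoxd genes near the band.

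A part of the summed Hox ratio came from 3 genes. Over all members it was 2.31 (2.06 to 2.59), and without Hoxa5, Hoxb5 and Hoxb6, which were chosen after their values were seen, it was 1.52 (1.34 to 1.72). The 36 remaining genes then summed to 18.0 and 11.3 TPM.

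Most of the 14 genes were read from 1 known transcript form. Of them 5 have 1 annotated transcript and 9 have more. In Hoxd8 and Hoxc4 the leading transcript held 98.7% and 98.0% of the gene's level on average over the libraries. That of Hoxb5 held 97.1% in replicate 1, and replicate 2 had 1 count. The leading transcript of Hoxb6 held 84.3% in replicate 1, the only library with counts for it. That of Hoxc5 held 66.9% and 91.6%.

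Hoxd3 was the exception among the genes of higher level. Of its coding transcripts, the highest by mean share held 23.6% and 53.4% of its level, and a short one of 415 nt 32.0% and 0%. The level is per length, and by counts the short one held 5.48% in replicate 1, or 5.36 counts. A transcript annotated as keeping an intron held 20.0% and 46.6% of the level. Of the exonic bases of Hoxd3, 62.8% lie under exons of Hoxd4, Hoxd3os1, Haglr or a further annotated gene. For Hoxd4 the share was 52.3% and for Hoxb3 52.9%, so the counts of these 3 genes are uncertain. It was 27.3% for Hoxb2, 27.1% for Hoxa3 and 15% for Hoxa2. Hoxa5, Hoxb6, Hoxc4, Hoxc13, Hoxd1, Hoxd8 and Hoxd9 shared no exonic base with another gene, and Hoxb5 shared 3.59% with Hoxb5os. No run of 100 bases was shared between Hox genes beyond the overlapping models of Hoxd3 with Hoxd4 and of Hoxc5 with Hoxc10.

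Among the 45 other annotated genes inside the 4 clusters, 30 had no count in either library. Of the 45, 22 are small RNAs, many of them shorter than 200 nt, and the libraries were made from RNA over 200 nt. The share without counts among all genes of such types was not computed. The 30 are therefore not read as a trait of the clusters. Hotairm1, an antisense RNA of the Hoxa cluster, had 17 and 8 counts and levels of 2.48 and 2.59 TPM. Hoxd3os1 had 34.1 and 29.4 counts and levels of 2.52 and 2.82 TPM, and Haglr, which starts beside Hoxd1 on the other strand, had 36 and 33 counts and levels of 1.20 and 2.07 TPM. These antisense RNAs of Hoxa and Hoxd were found in both libraries. Hoxaas2, beside Hoxa3, had 35.2 and 14.8 counts and levels of 1.05 and 0.350 TPM. The pseudogene Gm11539 in the Hoxb cluster had levels of 1.41 and 3.32 TPM, and the small RNA Gm27477 had 0 and 3 counts. Hoxb5os, antisense to Hoxb5, had 10 and 0 counts, on the same side as Hoxb5, and Hoxaas3 had 10.9 and 1. The sources used here do not give the strand handling of the counting, and reads of antisense partners cannot be told apart from those of the gene. Hotair, in the Hoxc cluster, had no count.

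The sequence upstream of the genes was compared for 4 members: Hoxd1 and Hoxd8, which passed 1 TPM in each library, and Hoxa5 and Hoxa2, which passed it in replicate 1 only. Each run holds the 250 bases before the gene start in RefSeq (GRCm38.p6), 5′ to 3′ on the gene's strand, with every CG dinucleotide in capitals. Hoxd1 lies at chr2:74762730-74762979 (plus), Hoxd8 at chr2:74704365-74704614 (plus), Hoxa5 at chr6:52204588-52204837 (minus) and Hoxa2 at chr6:52164832-52165081 (minus).
Hoxd1: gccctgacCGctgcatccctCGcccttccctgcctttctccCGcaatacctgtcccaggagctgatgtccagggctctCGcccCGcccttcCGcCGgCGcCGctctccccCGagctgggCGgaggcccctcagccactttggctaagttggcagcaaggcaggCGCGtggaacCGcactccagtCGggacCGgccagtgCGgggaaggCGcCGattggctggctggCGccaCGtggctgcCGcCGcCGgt
Hoxd8: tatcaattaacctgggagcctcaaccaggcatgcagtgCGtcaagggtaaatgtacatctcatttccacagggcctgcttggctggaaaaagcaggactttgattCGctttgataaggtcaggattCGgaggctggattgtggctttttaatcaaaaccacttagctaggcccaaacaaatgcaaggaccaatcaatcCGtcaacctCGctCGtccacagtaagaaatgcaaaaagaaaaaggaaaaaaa
Hoxa5: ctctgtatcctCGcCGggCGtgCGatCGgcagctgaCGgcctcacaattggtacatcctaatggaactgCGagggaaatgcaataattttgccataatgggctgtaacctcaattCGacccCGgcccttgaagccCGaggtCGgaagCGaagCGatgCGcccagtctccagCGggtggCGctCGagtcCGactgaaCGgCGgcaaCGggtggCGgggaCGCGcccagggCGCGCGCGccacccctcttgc
Hoxa2: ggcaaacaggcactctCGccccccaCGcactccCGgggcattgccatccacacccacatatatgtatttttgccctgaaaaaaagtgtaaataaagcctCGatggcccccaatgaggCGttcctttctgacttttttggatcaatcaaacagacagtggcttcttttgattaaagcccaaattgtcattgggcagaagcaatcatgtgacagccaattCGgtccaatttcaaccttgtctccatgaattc
Hoxd1 had 24 CG dinucleotides and Hoxa5 had 28, while Hoxd8 and Hoxa2 had 6 each. Of the Hox genes 22 matched a RefSeq window, with 24 windows among 32851. The median Hox window had 12.5 CG dinucleotides (range 2 to 35), beside 6 over all windows, and 19 of the 24 lay above that.

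**Figure D4:**
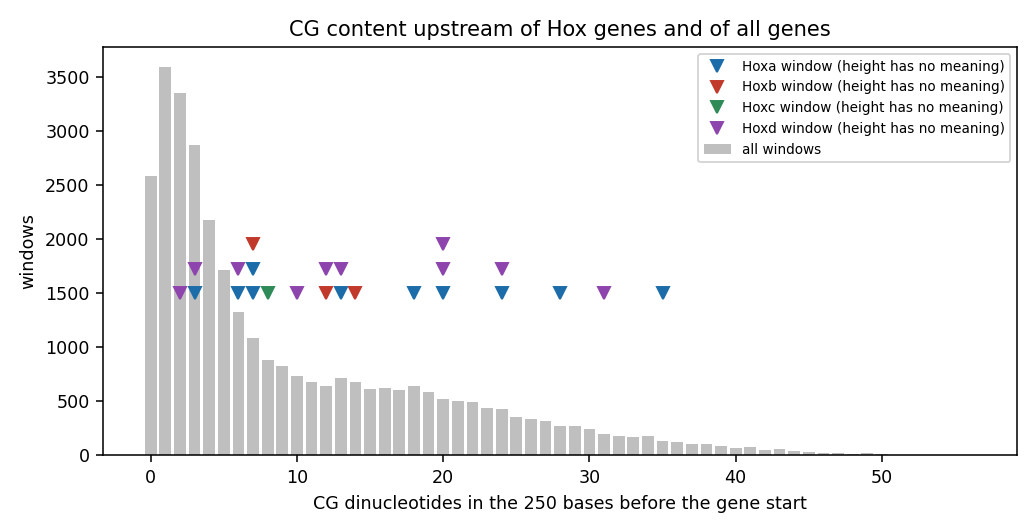
CG dinucleotides in the 250 bases before the gene start. Grey bars count all RefSeq windows, and triangles mark the 24 Hox windows by cluster at an arbitrary height. Most triangles lie right of the median of 6 for all windows.

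On both strands of these windows, CCAAT, the box bound by NF-Y, was found in 14 of the 24 Hox windows and in 33.8% of all windows. AGGTCA, the core of nuclear receptor sites that include those for retinoic acid, was found in 6 and in 14%. TATAAA was found in 4 and in 12.4%, and TGATNNAT, a joint site of Pbx and Hox proteins, in 4 and in 7.68%. Matches of different motifs were counted separately and may overlap, and none is evidence of binding. The Hoxa2 window held CCAAT 4 times and TGATNNAT once, and the Hoxd8 window held AGGTCA once.

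The partners and regulators of Hox genes were present where the Hox genes were scarce. All 9 TALE cofactors reached 1 TPM in each library, with a median of 18.1 TPM, led by Meis1 (35.9 and 45.7 TPM) and Meis3 (40.5 and 38.0). All 18 Polycomb genes passed, with a median of 19.6 TPM, led by the histone-binding subunits Rbbp4 (363 and 357) and Rbbp7 (324 and 351). All 8 genes of the opposing Trithorax group and its demethylases passed, led by Ash2l (90.7 and 84.4) and Men1 (68.8 and 69.8). Of 13 matched regulators of Hox genes in the hindbrain, 10 passed, led by the retinoic acid receptors Rarg (106 and 103) and Rara (33.5 and 30.3). All 7 Hox targets and partners passed, led by Hmgb1 (1217 and 1314) and Gmnn (84.2 and 87.9), as did all 6 Dlx genes, the homeobox family of the pharyngeal arches, led by Dlx5 (40.8 and 33.9 TPM). A share of 60.9% of all protein-coding genes passed the same level.

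Related homeobox genes were low too. None of the 11 ParaHox, Evx, Gbx and Mnx genes reached 1 TPM in either library, their sum was 0.910 and 0.80 TPM, and Gsx1, Gsx2 and Cdx4 had no count. Gbx2, of the front hindbrain, led with 0.75 and 0.15 TPM, followed by Cdx2, which activates Hox genes in the tail, with 0 and 15 counts. Most genes that flank the clusters were not low. Of 16 matched neighbours 13 passed 1 TPM in both libraries (60.9% of protein-coding genes did), with a median of 36.5 TPM. Hnrnpa3 led the list at 257 and 207 TPM, followed by Atp5g2 at 155 and 113. Beside Hoxd, Mtx2 had 95.6 and 89.9 TPM and Lnpk 29.8 and 28.4, and beside Hoxa, Skap2 had 7.59 and 8.10. Of the neighbours of Hoxb, Cbx1 had 127 and 126 TPM and Snx11 17.7 and 18.1. Skap1 had 0.370 and 0.460 TPM and Ttll6 0.0600 and 0.190, and Calcoco2 had no count.

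Markers of tissues that are known for Hox expression were set beside the excess of replicate 1. Of the 12 hindbrain and spinal cord markers 1 reached 1 TPM in each library, and their sum was 28.0 and 20.5 TPM, most of it Irx3. Nkx2-2, Pax2 and Chat were at 0 in replicate 2, and Pax2 had 13 counts in replicate 1. Of the 6 limb bud markers 4 passed, with sums of 14 and 8.80 TPM, and most of the difference was Hand2 with 6.56 and 2.29 TPM. Tbx4 had 2.32 and 2.28 TPM, En1 2.04 and 2.16, and Lmx1b 0.410 and 0.420. Lung and gut markers (1 of 6) summed to 9.52 and 9.92 TPM, with Cdx2 at 0 in replicate 1. Of them the lung gene Sftpc was at 3.22 and 0.180 TPM, while Sox17 was at 5.41 and 7.28, Foxa1 at 0.720 and 1.85 and Nkx2-1 at 0.0400 and 0.120. Kidney and genital markers (1 of 5) summed to 18.5 and 17.3 TPM, led by Six2. Of the others, Lhx1 was at 0.710 and 0.0900 TPM and Pax8 at 0.25 and 0.03. Gdnf was at 0.92 and 0.64 TPM and Wt1 at 0.17 and 0.16. Trunk mesoderm markers (7 of 8) summed to 96.7 and 95.3 TPM, sensory neuron markers (4 of 7) to 25.5 and 36.6, and blood progenitor markers (6 of 6) to 94.8 and 115. Liver markers (1 of 7, with Fgb and Apob at 0 in replicate 1) and heart markers (1 of 6) were higher in replicate 2, the opposite side to Hoxa5, Hoxb5 and Hoxb6. The part of any of these tissues in the Hox differences was not tested.

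**Figure D5:**
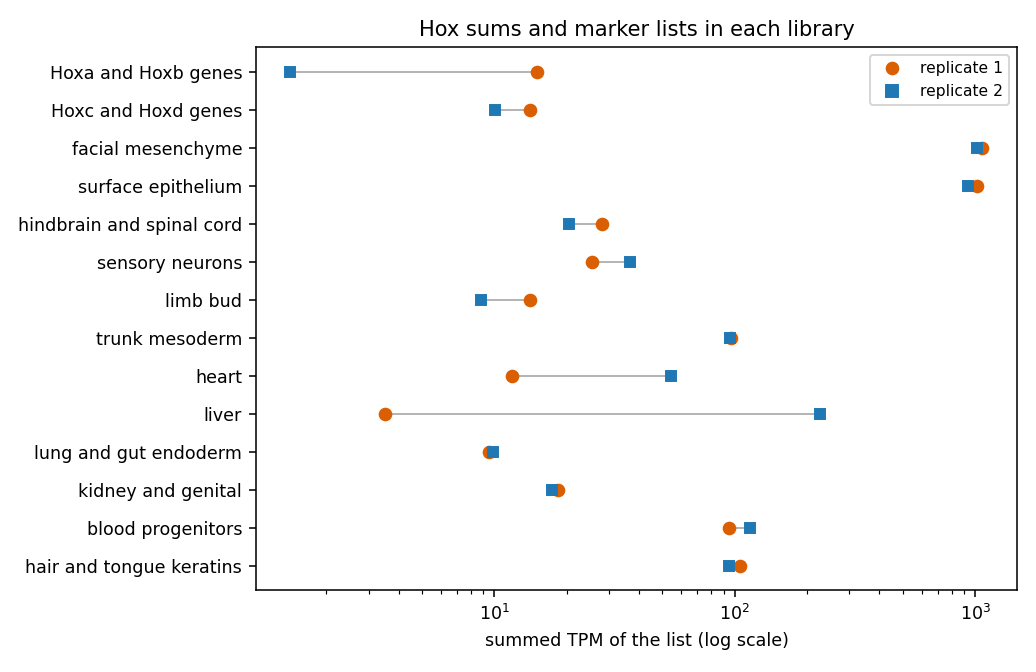
Summed TPM of Hox genes and marker lists in each library, on a log axis. Circles are replicate 1 and squares replicate 2. The Hoxa and Hoxb genes, grouped after their values were seen, summed to 15.1 and 1.42 TPM and the Hoxc and Hoxd genes to 14.1 and 10.1 TPM, and the liver list is the 1 with a wider gap.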

How the data were processed

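RNA over 200 nt (10 ng, Ambion mirVana) of 2 facial prominence samples was sequenced with ERCC spike-ins, per the labels. The aligner, quantifier and strand setting are not given in the sources used here. Per the deposited notes, reads were assigned to mm10 with annotation M4. Expected counts are the authors' estimated counts per gene, per the file headers. The deposited TPM and FPKM values are the authors' levels per length and library total. The deposited TPM credibility bounds are a signal in TPM.

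Symbols came from GENCODE M21 (GRCm38) by identifier without version, which matched 42462 of 43346 gene rows, and gene models may differ from M4. Members and lists were chosen with earlier results of these data known. Named are members at 1 TPM or more in either library or highest in their cluster or number, those with no count, and the 2 highest genes of each list. Other genes were named after their values were seen. The values of 1 member, which counts in all sums, are not reported here.

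Counts were rounded and scaled with TMM in edgeR 4.0.16 (R 4.3.3) over gene rows, with a prior count of 1. Single ratios carry exact Clopper-Pearson 95% intervals (scipy 1.17.1). Alternatives used DESeq2 1.42.0 size factors, total or spike-in scaling, and other units and thresholds. The ratio step was tested on simulated data.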

Additional observations from a re-analysis of the deposited data

How the results depend on the processing

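The number of Hox genes that reached the threshold in each library, 3 at 1 TPM, became 11 at 0.1 TPM, 7 at 0.5 TPM and 1 at 2 TPM, and with 1 library left out the count ranged from 4 to 10. With FPKM it was 2 and with posterior mean TPM it was 4. The 6 Hox genes higher in replicate 1 became 14 when every gene with 1 or more counts was included. Their number was 5 with spike-in scaling and 6 with DESeq2 size factors. Apart from single libraries at 1 TPM, the share of all protein-coding genes at these other settings was not computed. The changed numbers therefore have no background beside them, and a gene with few counts can pass 2-fold on a few reads. The summed ratio of 2.31 became 1.57 with spike-in scaling and, in an alternative chosen after seeing the data, 1.52 without Hoxa5, Hoxb5 and Hoxb6. Spike-in scaling moved the median log2 ratio of protein-coding genes from 0.03 to -0.53, and the log2 ratios of Hoxd1, Hoxd3 and Hoxd8 to 0.03, 0.06 and -0.00.

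Shares of clusters and of paralog groups stayed within 1 SD of their means in other units. With 2 libraries a single library always lies within 1 SD of the mean, so leaving 1 out says nothing about their stability: the Hoxb share of 15.9% was 29.2% in replicate 1 alone and 2.61% in replicate 2 alone. No paired analysis was possible because there is 1 group, and no ratio was possible with 1 library left out. At a few counts per gene, depth limits the levels of the 25 members under 20 counts.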

Other observations

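Among the 15017 protein-coding genes with 20 or more counts, the genes with the highest log2 ratios of replicate 1 over replicate 2 held 5 Hox genes in their first 18 ranks (Hoxb6, Hoxb5, Hoxa5, Hoxa2 and Hoxa3). The filter is on the summed counts, and these 5 passed it through replicate 1, as did the further genes named here. Their high ranks were thus in part set by the filter. Other named genes of these ranks, chosen after their values were seen, were the transcription factor genes Skor1 (32 and 0 counts), Tlx3 (29 and 1) and Lhx1 (55 and 3), which are known from the dorsal spinal cord and hindbrain, and the lung surfactant gene Sftpc (48 and 2). Further down, Gbx2 had 31.6 and 4.92 counts at rank 25 and Tlx1 36 and 6 at rank 27.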
